A study of Mus musculus with 89 samples.

Results

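The comparison was between stroma taken from treated tumours early after treatment (acute stroma) and stroma of tumours before treatment (naive stroma) in mouse squamous cell carcinoma, a cancer of keratinocytes. Members were chosen by the words that the authors' annotation gives each captured area for its slide and location: 9 segments were acute stroma and 15 were naive stroma, 24 of the 89 segments in the study. Segments were small areas of fresh frozen tumour sections, chosen on stained images and labelled as neutrophils of the tumour microenvironment. Their RNA was read out on the GeoMx spatial profiler, which hybridises a panel of oligonucleotide tags to the section, releases the tags of each area with ultraviolet light and counts them by sequencing.

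The study's design text asks how neutrophils in different regions of a tumour respond to immunotherapy. The labels give no agent, dose, time, strain, sex or age for either group, and they name no animals, so segments of a group may share an animal and p-values over segments are too small. All naive segments came from 1 slide and all acute segments from another. The scan names describe the naive slide by a tumour model and the acute slide by a word for treatment, so whether both slides hold the same model is not settled here. Slide and treatment cannot be told apart in any comparison below. Tags were collected into plates named G and H. All 15 naive segments and 4 acute segments lay on plate G, and 5 acute segments lay on plate H, so the 4 were also compared with the 15 as a comparison within 1 plate. Positions on the scans placed the naive segments in 4 separate pieces of tissue and the acute segments in 5; the annotation does not name these pieces.

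As background, tumour stroma is the supporting tissue around cancer cell nests, built largely of fibroblasts and the fibrillar collagens they secrete. It holds blood vessels and immune cells, of which macrophages and neutrophils are common in skin carcinomas. Neutrophils carry little RNA and are known by the alarmins S100a8 and S100a9, the surface protein Ly6g and the receptors Csf3r and Cxcr2. Macrophages are known by Apoe, a lipid carrier, and by C1qa, C1qb and C1qc, the chains of complement C1q.

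Depth, the sum of a segment's counts above the floor of 1 count, ran from 2110 to 208675 in acute stroma and from 3124 to 96548 in naive stroma. Acute segments held 9 to 214 nuclei and naive segments 30 to 147. The background was expressed as the level of the negative probes, which match no mouse RNA, over the mean level of the targets. It had a median of 51.8% in acute stroma (range 11.3% to 58.7%) and of 20.3% in naive stroma (range 8.49% to 38.5%). This was the only measure of 12 compared whose exact permutation test over segments passed the threshold after adjustment over all 12 (two-sided, p = 0.00172, adjusted p = 0.0207). The others were depth, nuclei, depth per nucleus, the negative-probe level and the share of targets measured, each over all segments and on plate G, with the background on plate G (medians 24.5% and 20.3%, exact permutation p = 0.246).

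**Figure D1:**
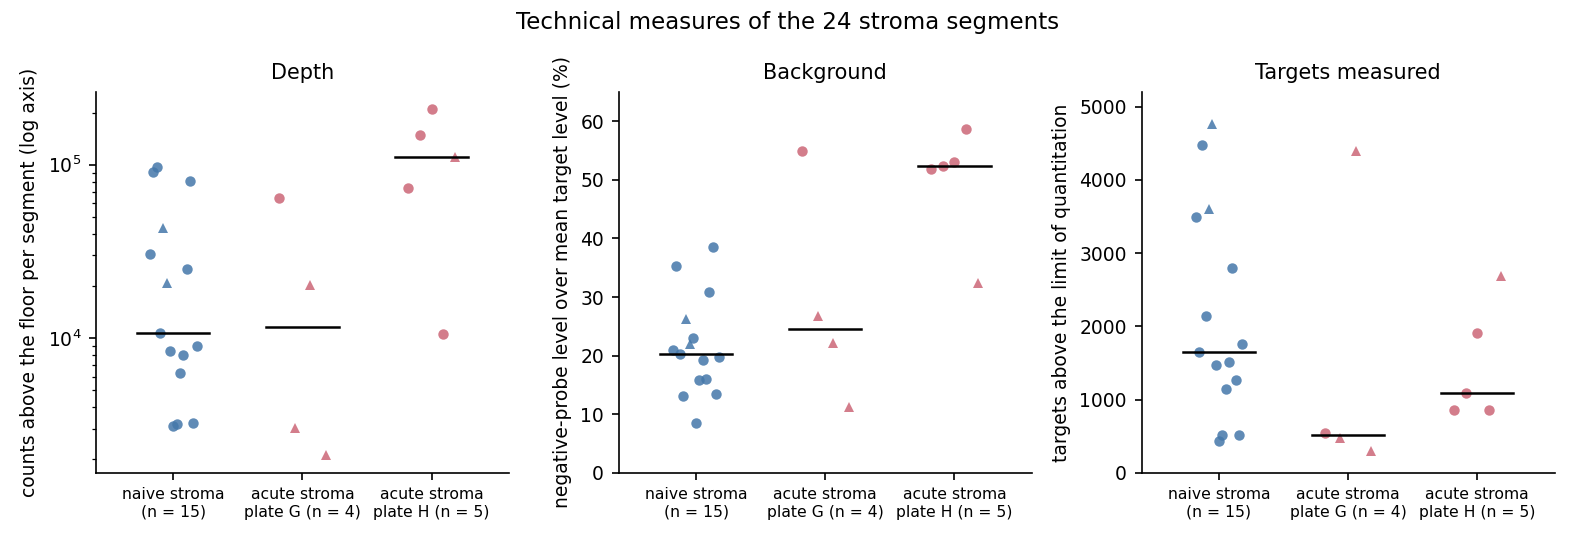
Depth (counts above the floor, log axis), background (negative-probe level over mean target level, percent) and number of targets above the limit of quantitation in each of the 24 stroma segments. Points are segments, black lines are medians, and triangles mark acute piece 1 and naive piece 5; the 5 acute segments outside piece 1 have backgrounds of 51.8% to 58.7%, above all 15 naive segments.

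The background followed the tissue pieces. The 4 acute segments of piece 1 (segments 2, 3, 4 and 9) had backgrounds of 11.3% to 32.4%, within the naive range. The 5 acute segments in the other pieces (segments 1, 5, 6, 7 and 8) had 51.8% to 58.7%, although their depth ran from 10587 to 208675. Of these 5, 3 carry a stain tag for cancer in the annotation, and none of piece 1 does. Of the 4 acute segments on plate G, 3 belong to piece 1.

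The labelled cell type was checked against its markers. All 15 genes of the neutrophil list are on the panel, and 2 of them, S100a8 and S100a9, were above the limit of quantitation in enough segments to be tested (at least 5 of 24). That limit was set per segment from its negative probes, as their geometric mean multiplied by the squared geometric SD (power 2), and was never under 2 counts. Ly6g was above the limit in 0 of 9 acute and 2 of 15 naive segments, and Csf3r and Cxcr2 each in 0 of 9 and 1 of 15. Summed, the list held a median of 7.56 of every 10000 counts in acute stroma (range 0 to 9.88) and 6.70 in naive stroma (range 0 to 10.7), which is 1.01 and 0.891 times what the same number of average targets would hold. The fibroblast list, set beside it, held 6.58 times the panel average in acute stroma and 35 times in naive stroma. The segments are therefore described here as stroma areas, with most neutrophil markers not measured above background.

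Across all targets, differences between acute and naive stroma were small against the spread between segments. Of 2449 targets tested with limma on log2(signal + 1) at equal depth, 1 was lower in acute stroma after Benjamini-Hochberg adjustment at 0.05 (0.0408% of those tested) and 0 were higher (0%). At an unadjusted p under 0.05, 44 targets were higher (1.8%) and 186 were lower (7.59%). The fitted difference was below 0 for 1602 targets (65.4%) and above 0 for 847 (34.6%), with a median of -0.12, so a list is read below against these shares. Setting the same upper quartile over the tested targets moved that median to 0.07. It was -0.01 with no filter on low values, -0.03 as counts per 10000 of depth and 0.002 with the negative-probe level subtracted. The shift thus depends on the filter and the scaling. The filter counts segments of both groups, so targets measured mainly in 1 group also enter, and it partly sets their direction. Log2 differences of weak targets are uncertain in size, because the pseudocount and the floor lie close to their signal. The floor of 1 count was worth 0.288 to 3.74 of signal, depending on the segment. It can therefore shrink or enlarge a difference. For Clec2j, described below, the difference was -2.06, and it was -2.20 and -1.65 with pseudocounts of 0.1 and 5. As counts above the floor per 10000 of depth it was -1.95. The effect of the floor apart from that of the scaling was not tested.

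**Figure D2:**
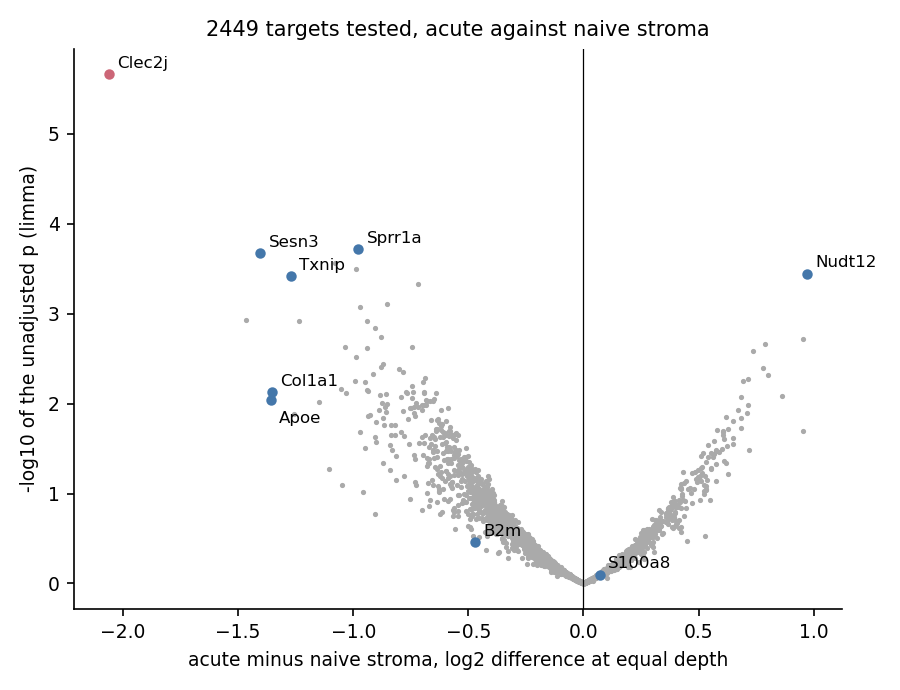
Log2 difference (acute minus naive stroma, at equal depth) against -log10 of the unadjusted p from limma for the 2449 targets tested, 1 point a target. Clec2j (red) is the only target past an adjusted p of 0.05; named targets in blue are not, and the cloud lies mostly to the left of 0.

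The target that fell was Clec2j, a member of the Clec2 family of C-type lectin-related genes, several of which encode ligands for receptors of natural killer cells. RefSeq lists the locus as a pseudogene on chromosome 6, from 128655105 to 128657027 in mm10. Whether its probe also reads the related Clec2 genes on the panel was not tested. Clec2d, the other tested member of the C-type lectin list, had a fitted difference above 0 and was not called. Without acute piece 1 the fitted difference of Clec2d was below 0. On plate G its normalised signal was 9.72, 3.74, 7.48 and 3.74 in acute segments 1 to 4, and on plate H it was 10.6, 10.8, 11.2, 3.74 and 8.01 in segments 5 to 9. In naive stroma the signal ran from 3.74 through a median of 29.3 to 150. Every acute segment lay at or below 11.2, whereas 13 of 15 naive segments were at 15 or more, and the other 2 were at the floor of 1 count. In counts, the acute segments with the highest signal held 29 and 39 and the highest naive segments 133 and 80.

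At equal depth, Clec2j was 2.06 lower on the log2 scale, a fitted value of -2.06 (SE 0.387, adjusted p = 0.0053 by limma). It was above the limit of quantitation in 6 of 9 acute and 13 of 15 naive segments. The median count over the negative-probe level was 4.68 in acute stroma (range 0.961 to 5.95) and 12.1 in naive stroma (range 0.943 to 84.7). The highest signals came from naive segments 5 and 6, which make up naive piece 5 (124 and 150). Without that piece, Clec2j differed by -1.69 (adjusted p = 0.00956). Within plate G the difference was -1.76 (SE 0.542) and was not past the threshold (adjusted p = 0.94). It also missed the threshold with no depth covariate (-1.75, adjusted p = 0.155), with every segment thinned to 2000 counts (-1.16, adjusted p = 0.724) and with the negative-probe level as a covariate (-1.69, adjusted p = 0.678). The same held with 1 mean per tissue piece (-2.48, adjusted p = 0.0643), with plate as a covariate (-1.76, adjusted p = 0.743), without the 3 segments tagged for cancer (-2.04, adjusted p = 0.0791) and with acute piece 1 alone (-1.91, adjusted p = 0.361). The direction was negative under these 7, of 16 alternatives besides those that leave out a segment or a piece.

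Clec2j differed among the other regions of the study as well. Its median signal was 114 in 13 naive segments at the interface of tumour and stroma and 88.2 in 14 naive segments within the tumour. It was 9.82 in the 2 acute interface segments, 26.2 in 22 relapse interface segments and 20.6 in 14 relapse stroma segments. Acute stroma, with a median of 8.01, was therefore the lowest of the 7 classes in order. The acute and relapse stroma ranges overlap (3.74 to 11.2 and 3.74 to 67.3), and those differences were not tested here.

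Sesn3 encodes a sestrin, a stress-induced protein that restrains the growth kinase complex mTORC1, and lies on chromosome 9 from 14276301 to 14326134 (mm10, RefSeq). Its signal in acute stroma was 6.73, 7.48, 9.35 and 3.74 on plate G and 9.97, 14.2, 12.4, 5.61 and 8.55 on plate H. In naive stroma it ran from 7.48 through a median of 16.2 to 110. The groups overlap between 7.48 and 14.2, and the highest naive values, 79.5 and 110, came again from segments 5 and 6. The log2 difference of Sesn3 was -1.40 (SE 0.352), and its adjusted p of 0.132 missed the threshold. It was -1.25 within plate G (SE 0.503, adjusted p = 0.996).

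Ccl4, a chemokine that draws T cells and other leukocytes, lies on chromosome 11 from 83648624 to 83664683 (mm10, RefSeq). It was above the limit in 0 of 9 acute and 4 of 15 naive segments, too few to be tested. Its signal was 3.74, 3.74, 1.87 and 3.74 in acute segments 1 to 4 and 2.49, 5.61, 1.73, 1.87 and 3.21 in segments 5 to 9. The naive range was 2.49 to 18.7 with a median of 4.99. A difference was not detectable at this depth: with the wider set of 5087 targets, measured in 10% of all segments, Ccl4 differed by -0.69 (adjusted p = 0.584).

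**Figure D3:**
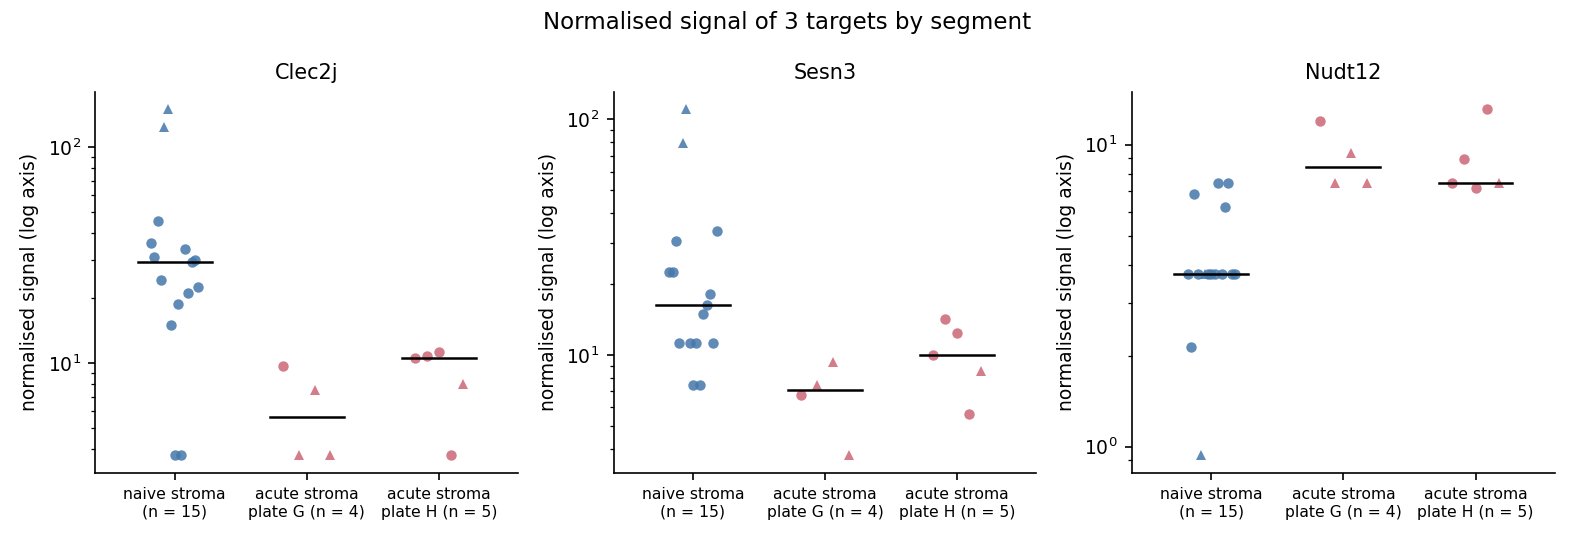
Normalised signal (log axis) of Clec2j, Sesn3 and Nudt12 in the 15 naive segments, the 4 acute segments on plate G and the 5 on plate H. Points are segments, lines are medians, and triangles mark acute piece 1 and naive piece 5; Clec2j of acute stroma stays at or below 11.2 and Nudt12 of acute stroma at or above 7.19.

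The 10 targets with the smallest unadjusted p hold 1 with a higher signal in acute stroma. Nudt12 encodes a hydrolase that cleaves nicotinamide adenine dinucleotides. Its signal was 12, 7.48, 9.35 and 7.48 in acute segments 1 to 4 and 7.48, 8.98, 7.19, 13.1 and 7.48 in segments 5 to 9. The naive signal ran from 0.935 through 3.74 to 7.48. The ranges overlap between 7.19 and 7.48, where acute segments 2, 4, 5, 7 and 9 lay. Nudt12 was above the limit in 7 of 9 acute and 3 of 15 naive segments. The 3 naive segments are fewer than the 5 that the filter needs. Nudt12 thus entered the test through acute segments, so the direction of its difference is partly set by the filter. The difference in Nudt12 was 0.97 (SE 0.254, adjusted p = 0.132), and it was 1.01 within plate G (SE 0.343, adjusted p = 0.996). In acute segments 2 and 4 the signal of 7.48 is 2 counts.

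The other 8 had lower signal in acute stroma, and none passed the threshold. Txnip, which binds thioredoxin and limits glucose uptake, had a signal of 2.24 to 12.8 in acute stroma and 5.61 to 31.2 in naive stroma (difference -1.27, SE 0.334, adjusted p = 0.132). Its value within plate G was -1.72 (SE 0.468, adjusted p = 0.663). Gpr137b, a lysosomal membrane protein, differed by -1.08, and Spry2, an inhibitor of growth factor signalling through Ras, by -0.99 (adjusted p = 0.132 for both). Sprr1a, a precursor of the cornified envelope of keratinocytes, differed by -0.98 (adjusted p = 0.132). It was above the limit in 0 of 9 acute segments and 7 of 15 naive segments. Clec10a, a galactose-binding lectin of macrophages and dendritic cells, differed by -0.97, and Aadacl4, of the arylacetamide deacetylase family, by -0.85 (adjusted p = 0.204 for both). These 2 were also above the limit in 0 of 9 acute segments. In naive piece 5 and in the 13 other naive segments, Clec10a was above it in 1 and 6, and Aadacl4 in 2 and 4. Sprr1a, Clec10a and Aadacl4 thus entered the test through naive segments alone, so the direction of their differences is partly set by the filter. The same limit holds for Gpr137b and Spry2, which had too few acute segments above the limit to pass without naive ones. Gpr137b was above it in 1 segment of acute piece 1 and 1 other acute segment, and Spry2 in 0 and 1. Gm52800, the target with the highest share of counts, held a median of 88.3 of every 10000 in acute stroma and 210 in naive stroma. Its difference was -0.72 (SE 0.192, adjusted p = 0.143).

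Among structural genes of the stroma none passed the threshold, and the sign of their median depended on the tissue piece. Of the 13 fibroblast genes, 12 were tested; the fitted difference was below 0 for 10 and the median was -0.74, against -0.12 for all targets. An unadjusted p under 0.05 was reached by 4 of the 12, all lower. Col1a1, a chain of type I collagen, had a signal of 41.9, 355, 279 and 29.9 in acute segments 1 to 4. In segments 5 to 9 it was 10.6, 51.6, 83.1, 22.4 and 361. The naive range of Col1a1 was 20.6 to 601 with a median of 246, so the acute segments at 279 and above lay above the naive median and the others near its lower end. The difference in Col1a1 was -1.35 (SE 0.486, adjusted p = 0.376), and within plate G it was -0.77 (SE 0.548). As counts per 10000 of depth it reached the threshold (-1.45, adjusted p = 0.0127). Col3a1 differed by -1.26 and Col1a2 by -1.11, and Postn, a matrix protein of activated fibroblasts, by -0.42. Fewer fibroblasts in a segment and less collagen RNA per fibroblast cannot be told apart.

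The high collagen values of acute stroma came from piece 1. Summed, the fibroblast list held 137 to 701 of every 10000 counts in the 4 segments of acute piece 1 and 11.9 to 42.8 in the 5 other acute segments, with no overlap. The naive segments held 18 to 400, of which the lowest, 18 and 23.4, were the 2 of naive piece 5. When only acute piece 1 was compared with naive stroma, the fibroblast median was 0.28 and that of all targets -0.01. When piece 1 was left out, the medians were -1.55 and -0.29. The fit with piece 1 alone, given for the lists below as well, was added after seeing the data. Piece 1 had been noticed for its values, so neither fit tests whether the pieces differ. With piece 1 left out, limma called 5 targets lower, with adjusted p-values from 0.0343 to 0.0391. They were Col1a1 (-2.67), Col1a2 (-2.89), Col3a1 (-2.62), Clec2j (-2.35) and Cd300ld3 (-2.18). In that comparison S100a7l2 was higher (1.56, adjusted p = 0.0368), and 449 of 2449 targets had an unadjusted p under 0.05. Leaving out the piece with the high acute collagen values lowers acute collagen by construction, so these collagen calls add no support for a fall. The difference between acute pieces was not itself tested, and the background moved with it as given above (11.3% to 32.4% against 51.8% to 58.7%). With the negative-probe level subtracted from every segment before scaling, all 9 acute segments included, Col1a1 was lower (-1.18, adjusted p = 0.0144). With the negative-probe level as a covariate 0 targets passed in limma, against 150 at an unadjusted p under 0.05. Without the 3 segments tagged for cancer, a fit added after seeing the data, the fibroblast median was -0.12, with 7 of 12 below 0, and 0 targets passed in limma, against 107 at an unadjusted p under 0.05. The 3 tagged segments all lie outside piece 1.

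Other matrix genes, among them the network-forming and beaded collagens, had a median of -0.35 over 12 tested, with 11 below 0. Bgn, a proteoglycan that binds collagen fibres, differed by -0.37, Col5a2 by -0.50 and Col6a1 by -0.30, and none reached an unadjusted p under 0.05. Within plate G the median of this list was 0.01 and 6 of 12 were below 0. It was 0.45 with acute piece 1 alone, -1.03 without that piece and 0.12 without the segments tagged for cancer.

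Macrophage genes, summed, held 27.7 to 76.1 of every 10000 counts in acute piece 1 and 6.61 to 29 in the other acute segments, so the pieces overlap, and 2.87 to 195 in naive stroma. All 11 tested of 12 had a fitted difference below 0, with a median of -0.70, and 4 reached an unadjusted p under 0.05. The median was 0.00 with acute piece 1 alone, where 5 of 11 were below 0, -1.36 without that piece and -0.21 without the segments tagged for cancer. Apoe had a signal of 44.9, 44.9, 127 and 26.2 in acute segments 1 to 4 and 13.7, 44.5, 81.7, 7.48 and 55 in segments 5 to 9. The naive range of Apoe was 5.61 to 463 with a median of 120, and 8 of 9 acute segments lay below that median. The difference in Apoe was -1.36 (SE 0.501, adjusted p = 0.376), and it was -0.78 within plate G (SE 0.62). Naive segments 5 and 6 held the lowest naive Apoe signals, 7.48 and 5.61. Without their piece Apoe was lower in acute stroma by limma (-2.04, adjusted p = 0.0024). Leaving out the lowest naive values widens the Apoe difference by construction, so that fit adds no support for a fall. In that comparison 9 targets were lower and 0 higher, and 296 of 2449 had an unadjusted p under 0.05. Among the 9 were C1qc (-1.58) and the lysosomal growth factor gene Grn (-1.51). With all segments C1qc differed by -1.15 (SE 0.427, adjusted p = 0.376) and C1qa by -0.90. Ctsd, a lysosomal protease, differed by -0.70 over all segments and by 0.14 within plate G. Within plate G the macrophage median was -0.17, near the -0.10 of all targets there.

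Naive piece 5 was low in some of these genes. Its 2 segments had Col1a1 signals of 46.7 and 20.6 and B2m signals of 7.48 and 5.61, whereas the 13 other naive segments had 74.8 to 601 and 26.2 to 108. In naive segments annotated as within the tumour, the median Col1a1 signal was 6.54 and the median Clec2j signal 88.2. The summed share of the keratinocyte list was 8.54 and 12.4 in piece 5. In the 13 other naive segments that share ran from 5.01 through a median of 12.7 to 68.6. Whether piece 5 holds tumour tissue, and whether that bears on its Clec2j signal, was not tested.

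Complement genes act in opsonisation and lysis and include C1q, C3 and C4b. All 9 tested of 13 had a fitted difference below 0, with a median of -0.43, and 2 reached an unadjusted p under 0.05; the C1q chains belong to the macrophage list too. The median was 0.04 with acute piece 1 alone, where 4 of 9 were below 0, -0.92 without that piece and -0.20 with a common upper quartile. C4b differed by -0.78 (adjusted p = 0.54) and C3 by -0.31.

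Genes of antigen presentation by MHC class I load peptides for CD8 T cells. Of 10 on the panel, 5 were tested, 4 had a fitted difference below 0 and the median was -0.55. B2m, the light chain common to class I molecules, had a signal of 5.98, 63.6, 133 and 37.4 in acute segments 1 to 4. In segments 5 to 9 it was 8.10, 12, 44.3, 5.61 and 173. Naive B2m ran from 5.61 through 41.1 to 108, so the highest values of all, 133 and 173, were acute and from piece 1, as was the 63.6. The difference in B2m was -0.47 (SE 0.497, adjusted p = 0.794). H2-D1, a heavy chain, differed by -0.76 (SE 0.471) and H2-K1 by -0.55. Summed, the list held 53.7 to 81.9 of every 10000 counts in acute piece 1, 8.45 to 19.2 in the other acute segments and 3.34 to 94.1 in naive stroma. With acute piece 1 alone the median of the list was 0.36, without that piece -1.39, and without the segments tagged for cancer -0.04.

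Genes of MHC class II, which present antigen to CD4 T cells, were 5 of 8 tested and all 5 had a fitted difference below 0, with a median of -0.57. H2-Aa differed by -0.90 (SE 0.362, adjusted p = 0.412) and Cd74, the invariant chain, by -0.57. The median of the list was 0.22 with acute piece 1 alone, -1.23 without that piece and -0.06 without the segments tagged for cancer.

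**Figure D4:**
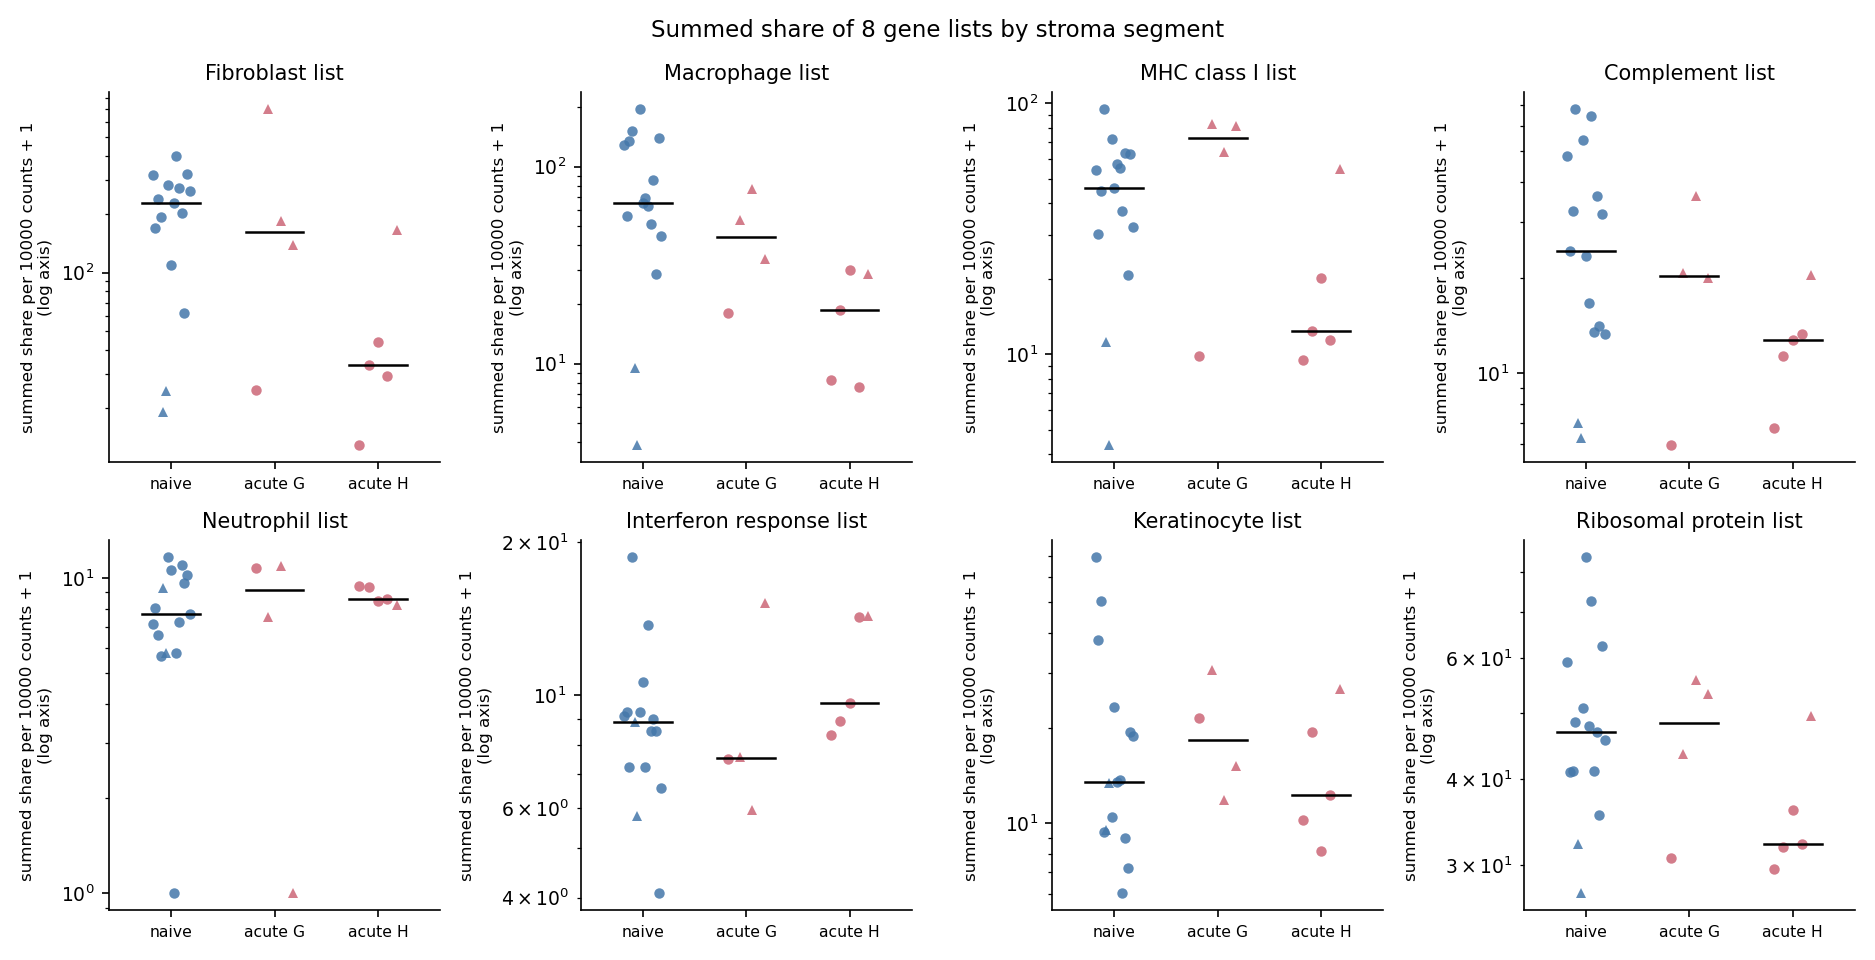
Summed share of 8 gene lists per 10000 counts above the floor (plus 1, log axis) in naive stroma (15 segments), acute stroma on plate G (4) and acute stroma on plate H (5). Points are segments, lines are medians, and triangles mark acute piece 1 and naive piece 5; the fibroblast share is 137 to 701 in acute piece 1 and 11.9 to 42.8 in the other acute segments, while the neutrophil share has medians of 7.56 in acute and 6.70 in naive stroma.

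Neutrophil genes did not differ detectably. S100a8 had a signal of 3.74, 3.74, 5.61 and 3.74 in acute segments 1 to 4 and 9.35, 9.72, 9.49, 5.61 and 7.48 in segments 5 to 9, against 1.87 to 11.2 in naive stroma with a median of 4.99. The difference in S100a8 was 0.07 (SE 0.274, adjusted p = 0.953). S100a9 differed by -0.29 (SE 0.282, adjusted p = 0.781). Of the 15 genes of neutrophil activation and the superoxide-forming oxidase, 1 was tested, the oxidase subunit Cyba (-0.50, adjusted p = 0.511). Cyba was above the limit in 1 segment of acute piece 1 and 0 of the other acute segments. Naive segments carried it past the filter, which partly sets its direction.

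Of the genes linked to tumour-associated myeloid cells, 6 of 14 were tested, with a median of -0.28. Spp1, a secreted matrix protein of such cells, differed by -0.48 (SE 0.456), Alox5ap, which serves leukotriene synthesis, by -0.65, and Mif, a cytokine, by 0.25. Alox5ap was above the limit in no acute segment and entered the test through naive segments alone, so the filter partly sets its direction. Spp1 reached 292 in 1 naive segment, whereas the acute range was 0.623 to 16.1.

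Of the 15 interferon-response genes 3 were tested: Ifitm3, an antiviral membrane protein, differed by -0.17, Irf1, a transcription factor, by -0.17, and Ifitm1 by -0.34. None reached an unadjusted p under 0.05.

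Chemokine ligands were 8 of 23 tested, with 7 below 0 and a median of -0.20. The sign of that median depended on the scaling and the piece: it was 0.00 with 3 of 8 below 0 under a common upper quartile, 0.11 with acute piece 1 alone and -0.68 without it. Ccl8, a monocyte attractant made by macrophages, had a signal of 1.87 to 37.4 in acute and 1.87 to 41.1 in naive stroma (difference -0.87, SE 0.427, adjusted p = 0.511). Cxcl12, a fibroblast chemokine that retains CXCR4-bearing cells, differed by -0.11 and Cxcl14 by -0.22.

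Few T cell genes were measured, and plasma cell genes were high in a few naive segments. Of 13 T cell genes on the panel 1 was tested, the co-receptor Cd4 (-0.30, SE 0.257). Cd8a was above the limit in 0 of 9 acute and 4 of 15 naive segments, and Ifng, Gzmb and Foxp3 in none of the 24. Among B and plasma cell genes 5 of 10 were tested, with a median of 0.03. Igha, the heavy chain of immunoglobulin A, reached 2369 in 1 naive segment, against a naive median of 4.81 and an acute maximum of 34.8, and was above the limit in 3 of 9 acute and 6 of 15 naive segments. Igkc, the kappa light chain, reached 1563 in naive stroma and 47.1 in acute stroma. The summed share of the list was highest in naive segments 3, 7 and 15 (699, 110 and 29 of every 10000 counts), against at most 21 in acute stroma. Its median went the other way, with 12.3 in acute and 5.98 in naive stroma. Ighm, the heavy chain of immunoglobulin M, differed by 0.52 (SE 0.306, adjusted p = 0.595).

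Keratinocyte genes, which mark tumour cells or skin inside a stroma segment, were 7 of 15 tested, with 5 below 0 and a median of -0.42. Krt16, a keratin of wounded and growing epidermis, differed by -0.84 (SE 0.356, adjusted p = 0.422). Krt1 and Krt10, keratins of differentiated epidermis, differed by 0.45 and 0.20. As counts per 10000 the median of this list was 0.07, so its sign depends on the scaling. The summed share was 7.19 to 29.5 in acute and 5.01 to 68.6 in naive stroma.

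Genes of energy use and upkeep gave no call. Glycolysis and hypoxia genes were 9 of 15 tested, with 8 below 0 and a median of -0.33. Gapdh differed by -0.76 (SE 0.335, adjusted p = 0.453) and Pkm, which makes pyruvate, by -0.65, whereas Aldoa differed by -0.09 and Ldha by -0.21. Ribosomal protein genes were 15 of 16 on the panel, with 14 below 0 and a median of -0.22. Rps2 differed by -0.07 (SE 0.34, adjusted p = 0.965) and Rpl13a by -0.48 (SE 0.352, adjusted p = 0.687). With a common upper quartile the ribosomal median was -0.01. Genes of iron and heme handling had a median of -0.37 over 5 tested. Hp, which binds free haemoglobin, differed by -0.96 (SE 0.565), and Slc11a1, a metal transporter of phagosomes, by 0.53 (SE 0.306). Genes of stress and early response, the list that holds Sesn3 and Txnip, were 6 of 18 tested, with 5 below 0 and a median of -0.12, the same as that of all targets. With a common upper quartile the median of this list was 0.07, with 2 of 6 below 0.

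Vessel, muscle and fat genes gave no call. Endothelial Cdh5 and Vwf differed by 0.14 and 0.15. Tagln, an actin-binding protein of smooth muscle, differed by -0.85 (SE 0.319, adjusted p = 0.376) and Acta2 by -0.20. Skeletal muscle genes had a median of 0.04 over 6 tested, and fat genes -0.27 over 7. Cfd, a complement factor secreted by fat cells, differed by -1.05 (SE 0.59, adjusted p = 0.577).

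Within plate G, where the 4 acute and 15 naive segments were collected together, 0 of 2449 targets passed the threshold in limma in either direction (0% each), against 26 higher (1.06%) and 76 lower (3.1%) at an unadjusted p under 0.05. The smallest adjusted p was 0.663. The fitted difference was below 0 for 1505 targets (61.5%), with a median of -0.10. The estimates for Clec2j, Sesn3, Nudt12 and Txnip kept their sign. The medians of the fibroblast list (-0.43), MHC class I (-0.33) and MHC class II (-0.39) were closer to 0 than over all segments. Other lists moved away from 0, among them interferon response (-0.17 over all segments, -0.43 on plate G) and skeletal muscle (0.04 and -0.38). Since 3 of the 4 acute segments on plate G belong to piece 1, plate and piece cannot be told apart in these shifts. The 2 comparisons share the naive segments and 4 acute segments, so they are not independent.

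Among the acute segments, plate H was set against plate G to see how far they differ within 1 stage. In that fit 0 of 2449 targets passed in limma (0% in each direction), 38 were higher on plate H at an unadjusted p under 0.05 (1.55%) and 113 lower (4.61%). The fitted difference was above 0 for 866 targets (35.4%) and below 0 for 1583 (64.6%). Acta1, the actin of skeletal muscle, had a signal of 0.748, 3.74, 1.87 and 3.74 on plate G and 38, 64.3, 7.77, 48.6 and 1.60 on plate H. The difference in Acta1 was 3.70 (SE 0.916, adjusted p = 0.77). Without acute segment 9, the plate H segment that lies in piece 1, it passed the threshold in limma (4.18, adjusted p = 0.0181). That segment had the lowest Acta1 signal on plate H, 1.60, so leaving it out widens the difference by construction and adds no support. Apoe was lower on plate H by a fitted -2.04 (SE 0.704) and Spp1 by -1.69 (SE 0.602), with adjusted p = 0.77 for both. Plate and tissue piece overlap here, since 3 of the 4 segments on plate G and 1 of the 5 on plate H lie in piece 1.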

How the data were processed

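The authors deposited normalised signal per target and segment, with a ratio per segment, its upper-quartile factor; multiplied by it, 99.986% of values were whole counts (tolerance 1e-06), and none was 0. Per the submitters' processing notes Seurat and mm10 were used; aligner and counter are not given in the sources used here. The negative-probe target was left out, leaving 19962 targets. The authors' nuclei number and scan position per segment were used as deposited.

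Targets above the limit of quantitation in at least 5 of 24 segments were tested (2449). Values were log2(signal + 1), fitted with limma 3.58.1 (lmFit, then eBayes with trend) under R 4.3.3, with log2 depth as covariate; two-sided p-values were adjusted by Benjamini-Hochberg over these targets (threshold 0.05). Tissue pieces were positions joined within 6000 units. Depth and background used exact permutation tests (SciPy 1.17.1, NumPy 2.4.6). The fits were tested on simulated data.

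Groups came from the authors' annotation, since the labels give 1 class. Named genes were, of called targets with mean signal above the median, the 10 largest rises and falls; called list members; the 10 smallest unadjusted p; up to 4 tested members per list with the highest share; and Clec2j, Sesn3 and Ccl4. Cd300ld3, S100a7l2, Grn, Chic2, Pcyox1, Tram2, Ly6g, Csf3r, Cxcr2, Cd8a, Ifng, Gzmb and Foxp3 were named after their values were seen. Members and lists were chosen with earlier results of these data known. Count models were planned as alternatives and not run: the deposited values are normalised, and a check of the low values, which expects 1 step size, missed the limit for treating them as recovered reads.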

Additional observations from a re-analysis of the deposited data

Results flagged for a closer look

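In 12 of 90 checks of named targets, list shares and technical measures (log2 scale unless stated), 1 acute segment stood far from the others. This was measured as its gap to the nearest segment over the range of the group. About 5% would be flagged among independent, normally distributed values. The checks share segments and genes, and tied low values can give a gap of 1.0, so the 12 cannot be read against that rate. Over the 9 acute segments, segment 4, the shallowest, was lowest in the summed share of the neutrophil list (gap 0.847; 0 against a median of 3.10) and of the tumour-associated myeloid list (gap 0.713; 0 against 3.07). Segment 2 was lowest for T cell genes (gap 0.666; 0 against 2.57) and for glycolysis and hypoxia genes (gap 0.606; 2.92 against 4.03), and highest for stress and immediate early genes (gap 0.537; 4.77 against 3.86).

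Over the 4 acute segments on plate G, segment 1 was highest for Gpr137b (gap 1.0; 2.46 against 2.24, where the other 3 were equal) and lowest for MHC class I genes (gap 0.877; 3.30 against 6.17). Segment 3 was lowest for Ccl4 (gap 1.0; 1.52 against 2.24) and highest in the share of targets above the limit (gap 0.938; 22% against 2.55%). Segment 2 had the fewest nuclei (gap 0.838; 4.0 against 5.52, or 16 nuclei) and the lowest glycolysis share (gap 0.899; 2.92 against 3.98), and segment 4 the lowest neutrophil share (gap 0.847; 0 against 3.17). Segments 2 and 4 had depths of 3054 and 2110, the lowest of the acute group.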

How the results depend on the processing

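Between acute and naive stroma 1 target passed. The number was 0 with no depth covariate (247 at an unadjusted p under 0.05), thinned to 2000 counts (81), with plate as a covariate (108), with the mean per tissue piece (217), and, among alternatives added after seeing the data, with the negative-probe level as a covariate (150), without the segments tagged for cancer (107) and with acute piece 1 only (121). It was 2 per 10000 counts and with the negative-probe level subtracted (Clec2j and Col1a1 in both; the latter added), 6 with all 89 segments in the fit (Clec2j, Chic2, Gm52800, Gpr137b and Txnip lower, Nudt12 higher) and 6 without acute piece 1. It was 2 without naive piece 1 and 9 without naive piece 5. Leaving out a piece gave 1 to 9 and leaving out a segment 1 each time.

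Clec2j missed the threshold with no depth covariate (-1.75), thinned (-1.16), with plate (-1.76, adjusted p = 0.743), mean per piece (-2.48, adjusted p = 0.0643), negative-probe covariate (-1.69), without cancer tags (-2.04, adjusted p = 0.0791) and with piece 1 only (-1.91, adjusted p = 0.361). It passed under the other 9 of 16, in all 24 fits without 1 segment (-2.18 to -1.88) and in all 9 without 1 piece (-2.35 to -1.69). Within plate G thinning called 2 targets, Pcyox1 and Tram2, both higher; in plate H against G leaving out segments gave 0 to 1. The causes were not tested, beyond fewer segments in some fits. Depth limits weak targets, since 1 count is worth 0.288 to 3.74 of signal. Count models (edgeR and DESeq2) were not run. No paired analysis was possible because the labels put all samples in 1 group with no shared replicate numbers.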
